A study of Mus musculus with 8 samples.

Results

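Forkhead (Fox) genes encode transcription factors that share a winged-helix DNA-binding domain and are grouped into lettered subfamilies. A list of 37 autosomal Fox genes was matched by symbol to the deposited gene tables. Of these, 36 were found in all 5 libraries, among 20368 autosomal genes, and Foxl1 was not analysed here. The list was divided into 19 genes of the developmental subfamilies FoxA to FoxI, 15 genes of the broadly expressed subfamilies FoxJ, FoxK, FoxM, FoxN, FoxO and FoxP, and Foxq1 and Foxs1, which stood apart. The class names follow subfamily letters alone. Expression was not measured, and some members of the second class, such as Foxj1 and Foxn4, act in particular tissues.

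The data were low-input CUT&RUN profiles of mouse primordial germ cells (PGCs), from which eggs and sperm arise. In this assay an antibody tethers a nuclease to chromatin, and the DNA released around its target is sequenced. One antibody recognised H3K27me3, the trimethyl mark that Polycomb repressive complex 2 places on histone H3. The other, IgG, gave the untargeted background. PGCs had been isolated by flow sorting from embryos pooled by sex, all B6 x Cast hybrids carrying Oct4-eGFP+/-, a germ cell reporter. Females were Xist KO/+ and males Xist KO/Y, so no library came from embryos with an intact Xist locus on each X. Both H3K27me3 libraries came from females, 1 at each of E11.5 and E12.5. IgG controls came from E11.5 males, E12.5 females and E13.5 females. There was 1 library per group, so replicate spread is unknown, and every interval below is a 95% interval for counting error only.

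Polycomb repressive complex 2 is known to mark genes that specify embryonic lineages while they are silent, and many such genes lie in CpG-rich sequence. Several forkhead factors are of this kind: Foxa proteins open chromatin in endoderm, Foxc and Foxf proteins pattern mesoderm, and Foxd and Foxb proteins act in neural and kidney precursors. Other family members serve most cells, such as Foxm1 in the cell cycle and the Foxo proteins downstream of insulin and Akt signalling.

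The libraries held 2356356 (H3K27me3 E11.5), 5020062 (H3K27me3 E12.5), 1357583 (IgG E11.5), 1515532 (IgG E12.5) and 5705401 (IgG E13.5) allele-assigned reads on chromosomes 1 to 19. A forkhead gene had a median of 70.5 and 133.5 H3K27me3 reads at E11.5 and E12.5, and of 6 to 23.5 reads in an IgG library. Levels are given as RPM, the reads of both alleles scaled to 1000000 autosomal reads in each library. As a check of the labelled cell type, marker genes were read in the same way at E12.5. None of the 9 germ cell marker genes tested was called higher than IgG and 3 were lower, whereas 9 of 9 somatic gonad marker genes tested were called higher. For blood and endothelium, 2 of 8 tested were higher and 1 lower. Of all autosomal genes tested, 15.2% were called higher and 29.5% lower. The germ cell counts lay near these shares, so that part of the check is weak. These values describe the mark on marker genes, and their expression was not measured.

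Genes were called higher or lower than IgG where the log2 ratio of levels, with a pseudocount of 1 RPM, was at least 1 or at most -1, among genes with 20 or more reads in the pair of libraries. At E12.5, 16 of 32 forkhead genes tested were called higher, against 15.2% of 16526 autosomal genes, and 5 were called lower, against 29.5%. The 16 were 13 of 15 developmental genes tested, Foxq1 and Foxs1, and Foxp4 alone of the 15 broadly expressed genes. At E11.5, 18 of 32 were called higher, against 17.2% of 15050 autosomal genes, and 2 were called lower, against 29.7%. These were 14 developmental genes, Foxq1, Foxs1, Foxj1 and Foxp4. The sparsest genes enter such counts more readily where the mark is high, so the counts describe the genes tested and not the whole list.

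All 36 genes were therefore also taken without a minimum of reads. The 19 developmental genes together had 1972 reads at E12.5 against 143 in stage-matched IgG, a 4.16-fold higher level (interval 3.51 to 4.97). At E11.5 they had 1243 reads against 90, which was 7.96-fold higher (6.42 to 9.97). The 15 broadly expressed genes had 13422 against 3493 reads at E12.5 and 6547 against 3066 at E11.5, for folds of 1.16 (1.12 to 1.20) and 1.23 (1.18 to 1.29). Foxp4 gave 26.3% and 30.9% of those H3K27me3 reads. Without Foxp4, which was set aside after its values were seen, the other 14 stood at 0.896 (0.861 to 0.932) and 0.886 (0.845 to 0.928). The intervals of the developmental and broadly expressed sums did not overlap at either stage, but they leave out the spread between genes. Single broadly expressed genes ran from 0.323 (Foxm1) to 6.78 (Foxp4) at E12.5.

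Without a minimum of reads, the median log2 ratio over all 19 developmental genes was 1.83 at E12.5 and 3.11 at E11.5. Over the 15 broadly expressed genes it was -0.50 at both stages. All autosomal genes had medians of -0.37 and -0.33. With the minimum of 20 reads, the median autosomal gene lay at -0.54 and -0.49, so that relative to the median gene the broadly expressed genes stood at 0.04 and -0.02 and the developmental genes tested at 2.55 and 3.66. Counted from the median gene, 19 forkhead genes were higher and 0 lower at E12.5, with Foxc1, Foxc2 and Foxp2 added. By the same centred rule 25.5% of autosomal genes were higher and 4.71% lower. At E11.5, 20 were higher and 0 lower, with Foxa3 and Foxn4 added, against 24.8% and 7.38% of autosomal genes.

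**Figure D1:**
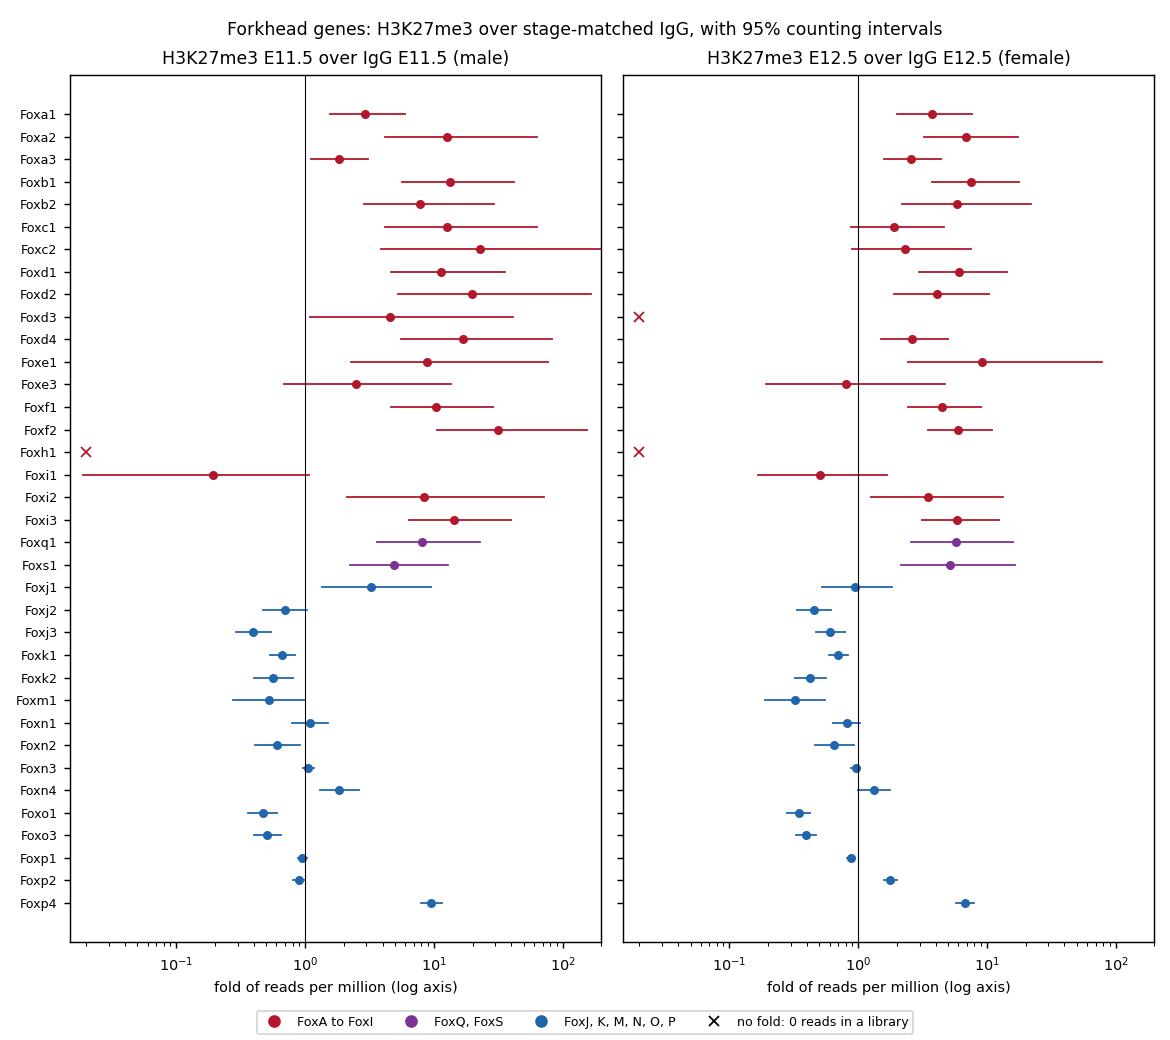
H3K27me3 level over stage-matched IgG for each of the 36 forkhead genes at E11.5 (left, IgG from males) and E12.5 (right), on a log axis; bars are 95% intervals for counting error, and those past the axis are clipped. Most FoxA to FoxI genes lie to the right of 1, most FoxJ to FoxP genes at or to the left of it, and Foxp4 lies with the first group at 9.54 and 6.78.

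The choice of IgG library moved these folds. The developmental sum in IgG E13.5 was 0.580 times (0.474 to 0.712) that in IgG E12.5, although neither library carries the mark. Against the deeper IgG E13.5, the developmental sum at E12.5 was 7.18-fold higher (6.37 to 8.12) in place of 4.16-fold. The broadly expressed sum in IgG E13.5 was 0.970 times (0.934 to 1.01) that in IgG E12.5. Of 17 developmental genes with reads in every library concerned, 13 had a fold at E12.5 that was over 1.5 times larger with IgG E13.5 as control. Neither this count nor the changed calls that follow were counted over all autosomal genes. The call of Foxc1 and Foxc2 changed with IgG E13.5 as control, and so did those of 6 broadly expressed genes (Foxj2, Foxj3, Foxm1, Foxn2, Foxn4 and Foxo3). At E11.5, calls changed for 6 of the 36 genes with IgG E12.5 as control (Foxa3, Foxj1, Foxj3, Foxk2, Foxm1 and Foxo3). With IgG E13.5 they changed for 6 (Foxa3, Foxd3, Foxe3, Foxi1, Foxn2 and Foxn4). Of these, Foxd3, Foxe3 and Foxi1 had too few reads to be tested against stage-matched IgG. Their log2 ratios to it, 1.655, 1.022 and -1.552, were already past the threshold for a call. The calls of Foxd3, Foxe3 and Foxi1 thus changed through the minimum of reads in the deeper pair, not through a ratio crossing the threshold.

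The classes also differ in gene length. Developmental genes were listed at 867 to 10255 bp (median 3315 bp) and broadly expressed genes at 4696 to 597384 bp (median 57513 bp). Among all autosomal genes within the first range, 27.3% were called higher at E12.5 and 37.8% at E11.5. Within the second range the values were 13.2% and 14.9%. Per kilobase of gene, the developmental genes had a median H3K27me3 level of 6.36 RPM at E11.5, and of 4.33 a day later. The broadly expressed genes had 1.05 and 0.916, and all autosomal genes 0.680 and 0.691. In the IgG libraries the developmental medians per kilobase were 0.727, 1.21 and 0.762, below the broadly expressed 1.21, 1.45 and 1.19 in each.

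**Figure D2:**
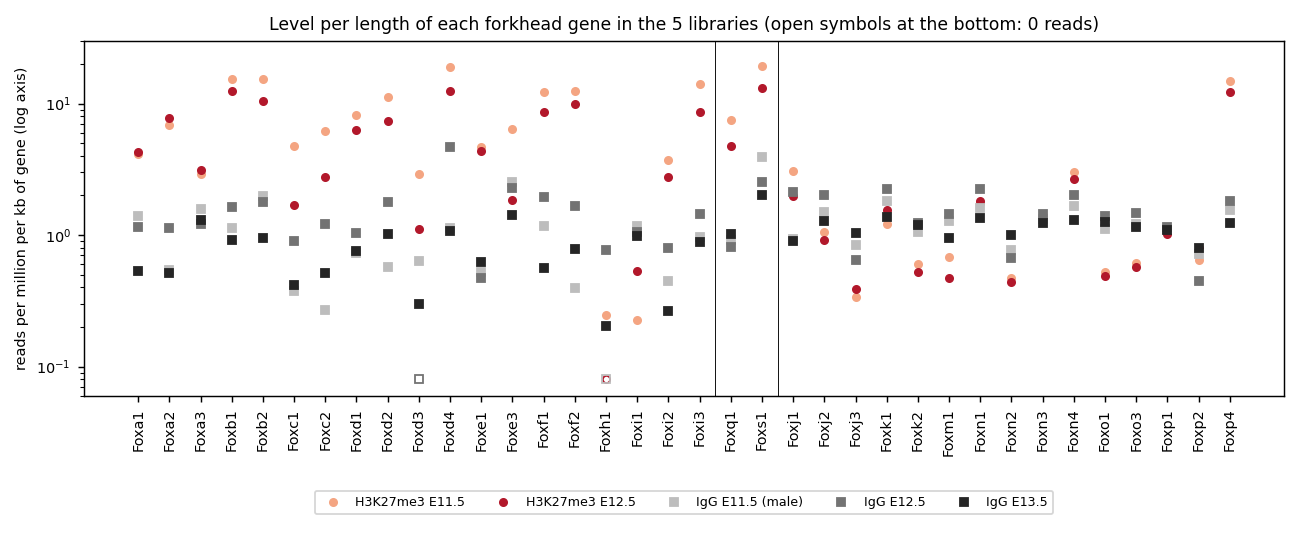
RPM per kilobase of gene (log axis) for every forkhead gene in the 5 libraries; circles are H3K27me3, squares are IgG, open symbols at the bottom mark 0 reads, and vertical lines part FoxA to FoxI, FoxQ and FoxS, and FoxJ to FoxP. The H3K27me3 levels of Foxs1, Foxd4, Foxb1 and Foxp4 are near 12 to 13 at E12.5. Of the 15 FoxJ to FoxP genes, 8 have both H3K27me3 values below all 3 of their IgG values. That count was not made over all autosomal genes, whose median log2 ratio to stage-matched IgG was itself negative, at -0.49 (E11.5) and -0.54 (E12.5).

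Among the FoxA genes, whose products are pioneer factors of endoderm, Foxa2 had the highest ratio. Foxa2 had 66 and 159 reads in H3K27me3 at E11.5 and E12.5, and 3, 7 and 12 in IgG at E11.5, E12.5 and E13.5. This was 28.0 and 31.7 RPM against 2.21, 4.62 and 2.10, and every H3K27me3 value lay above every IgG value. The fold over stage-matched IgG was 12.7 (4.15 to 63.0) and 6.86 (3.25 to 17.3). Foxa1, which overlaps Ttc6, stood 2.93-fold (1.56 to 5.98) and 3.73-fold (2.02 to 7.65) above IgG. Foxa3, the weakest of the subfamily, stood at 1.83 (1.12 to 3.11) and 2.57 (1.60 to 4.39). At E11.5 Foxa3 was not called over stage-matched IgG, but was called higher over IgG E12.5, at 2.37-fold (1.41 to 4.17), and over IgG E13.5, at 2.23-fold (1.59 to 3.13). The FoxA genes were the only developmental members with a level that was not lower at E12.5 than at E11.5 among those with 50 or more reads, with log2 changes of 0.06, 0.17 and 0.12, and each of the 3 intervals of their ratios included 1.

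Foxb1, which acts in the developing diencephalon and spinal cord, had 117 and 201 H3K27me3 reads and 5, 8 and 17 IgG reads. Its log2 ratio at E11.5 lay at percentile 99.3 of autosomal genes tested, with a fold interval of 5.62 to 42.3, and its fold at E12.5 was 7.59 (3.78 to 17.8). At E12.5 its log2 ratio of 2.71 lay at percentile 99.2 of autosomal genes tested. It was the highest developmental gene against IgG E12.5, but not against IgG E13.5, where Foxb1 had a log2 ratio of 3.37 and Foxf1, Foxa2 and Foxf2 had 3.42, 3.40 and 3.38. Foxb2 stood at 7.78-fold and 5.89-fold. Per kilobase both FoxB genes were near the top of the family, with 15.4 RPM for each gene at E11.5, and 12.4 and 10.4 a day later.

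The FoxD genes divided by depth. Foxd1, a regulator of kidney stroma, was 11.3-fold (4.68 to 35.6) and 6.04-fold (2.99 to 14.2) above IgG. Foxd2 was 19.9-fold (5.30 to 167, from 2 IgG reads) above at E11.5, and at E12.5 its log2 ratio was 1.83, with a fold interval of 1.91 to 10.5. Foxd4 was 16.7-fold (5.53 to 82.6) and 2.63-fold (1.51 to 4.96) above, and its IgG reads were 3, 14 and 12. Foxd3, which is known in neural crest and in pluripotent cells, had only 16 and 13 reads in H3K27me3 and 2, 0 and 4 in IgG. Both stages fell short of 20 reads with their IgG library, and Foxd3 was not called. Against IgG E13.5 it was called higher at E11.5, at 9.69-fold (3.12 to 39.8, from 4 IgG reads). The fold of Foxd4 at E12.5 was 11.55 (6.38 to 22.98) against that library.

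Foxe1, a thyroid regulator, had 31 and 61 H3K27me3 reads and 2, 2 and 10 IgG reads, for 8.93-fold (2.27 to 77.0) and 9.21-fold (2.44 to 77.7). The width of these intervals comes from the 2 IgG reads at each stage. Foxe3, a lens gene, had 13 and 8 reads in H3K27me3 and 3, 3 and 7 in IgG, with intervals on both sides of 1 at both stages, though at E11.5 it was called higher than IgG E13.5, at 4.50-fold (1.67 to 13.3). Foxh1, the partner of Smad proteins in Nodal signalling, had 1 and 0 reads in H3K27me3 and 0, 2 and 2 in IgG, and it overlaps Kifc2. The floor of 3 reads is above all 5 values, so no fold is given for Foxh1.

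The FoxI genes did not share one level. Foxi3, needed for ear and tooth placodes, had 150 and 195 H3K27me3 reads and 6, 10 and 23 IgG reads. Its fold was 14.4 (6.46 to 39.9) and 5.89 (3.13 to 12.47). Foxi2 stood at 8.35-fold (2.11 to 72.2) and 3.47-fold (1.27 to 13.3). Foxi1, a factor of inner ear and kidney ion-transporting cells, had 2 and 10 reads in H3K27me3 and 6, 6 and 21 in IgG, which placed it below IgG in the point value at both stages. Its folds of 0.192 (0.0190 to 1.07) and 0.503 (0.166 to 1.68) had intervals that included 1. Against IgG E13.5 it was called lower at E11.5, at 0.231 (0.0262 to 0.943, from 2 H3K27me3 reads). The interval of Foxi3 lay wholly above that of Foxi1 at both stages.

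A pair of genomic groups bring forkhead genes of different subfamilies together. On chromosome 13, Foxq1 (chr13:31558170-31560976), Foxf2 (chr13:31625816-31631406) and Foxc1 (chr13:31806646-31810635) lie in that order, 64.8 kb and 175 kb apart, in GRCm38.p6 coordinates. On chromosome 8, Foxf1 (chr8:121084386-121088154) and Foxc2 (chr8:121116171-121118895) lie on either side of Mthfsd, a metabolic enzyme gene. Foxf2, a regulator of gut and palate mesenchyme, had 165 and 276 H3K27me3 reads and 3, 14 and 25 IgG reads. It had the highest log2 ratio of the family at E11.5, 4.47, with a fold of 31.7 (10.7 to 155), and stood at 5.95-fold (3.49 to 11.03) at E12.5. The first of these folds rests on 3 reads of the male IgG. Against IgG E12.5 Foxf2 stood at 7.58-fold (4.39 to 14.2) at E11.5, a log2 ratio of 2.79, below Foxi3, Foxp4, Foxb1 and Foxq1 at 3.09, 3.04, 3.01 and 2.90. Foxq1, a gene of hair and stomach epithelium, had 85 and 115 against 6, 6 and 28 reads, for 8.16-fold (3.60 to 22.9) and 5.79-fold (2.58 to 16.1).

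Foxc1, a regulator of mesoderm, eye and vasculature, had 66 and 50 reads in H3K27me3 and 3, 8 and 14 in IgG. It was 12.7-fold (4.15 to 63.0) above IgG at E11.5 and 1.89-fold (0.888 to 4.61) at E12.5, when it was not called. With IgG E13.5 as control Foxc1 was called higher at E12.5, at 4.06-fold (2.21 to 7.95), and its fold at E11.5 was 5.31 (2.54 to 12.8) with IgG E12.5. Gmds, the gene on its other side, was not higher than IgG at E11.5 or E12.5, with log2 ratios of -1.16 and -0.72. In the chromosome 8 group, Foxf1 had 108 and 162 reads against 6, 11 and 12, for 10.4-fold (4.61 to 28.9) and 4.45-fold (2.42 to 9.08). Foxc2, which shapes lymphatic vessels and skeleton, had 40 and 38 reads against 1, 5 and 8, for 23.1-fold (3.91 to 933) and 2.29-fold (0.902 to 7.47). The first fold of Foxc2 rests on 1 IgG read, and was 5.14 (2.03 to 16.7) with IgG E12.5 and 12.1 (5.59 to 29.9) with IgG E13.5. At E12.5 Foxc2 was called higher than IgG E13.5, at 5.40-fold (2.48 to 13.4). Mthfsd, between them, had log2 ratios of 0.73 and 0.19 and was called at neither stage.

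Foxs1, a pericyte gene, had 60 and 86 H3K27me3 reads and 7, 5 and 15 IgG reads. With a listed length of 1311 bp it had the highest level per kilobase of all 36 genes, 19.4 and 13.1 RPM, and its IgG level per kilobase was also the highest of the family at E11.5 and E13.5. Its fold was 4.94 (2.26 to 12.8) and 5.19 (2.14 to 16.4).

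Of the broadly expressed genes, Foxp4 alone was called higher at both stages. Foxp4, which acts with Foxp1 and Foxp2 in lung and other epithelia, had 2021 and 3525 H3K27me3 reads, the most of any forkhead gene in both libraries, and 122, 157 and 402 IgG reads. This was 858 and 702 RPM against 89.9, 104 and 70.5. The fold was 9.54 (7.95 to 11.55) at E11.5 and 6.78 (5.78 to 8.01) at E12.5, the narrowest intervals among the genes called higher. Its log2 ratio of 2.75 at E12.5 lay at percentile 99.3 of autosomal genes tested. The genes on both sides of Foxp4, Mdfi and 1700122O11Rik, were called higher as well, with log2 ratios of 1.81 and 1.22 at E12.5. Foxp1 and Foxp2, its closest relatives, did not share the level. Foxp1 stood at 0.953 (0.877 to 1.04) and 0.881 (0.821 to 0.946). Foxp2 stood at 0.899 (0.805 to 1.01) and 1.78 (1.60 to 1.997), but its IgG levels also ranged from 241 to 433 RPM.

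The Foxo genes, the effectors that Akt holds out of the nucleus, lay below IgG. Foxo1 had 104 and 208 H3K27me3 reads, and 128, 181 and 611 IgG reads. This was 44.1 and 41.4 RPM against 94.3, 119 and 107, with no overlap between antibodies. Its fold was 0.468 (0.358 to 0.611) at E11.5 and 0.347 (0.283 to 0.426) at E12.5. Foxo3, which restrains the activation of ovarian follicles, had 58.6 and 54.4 RPM against 115, 139 and 108, and a fold of 0.510 (0.402 to 0.645) and 0.392 (0.327 to 0.472).

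Foxm1, a driver of cell division, overlaps Tex52. It had 21 and 31 H3K27me3 reads and 23, 29 and 72 IgG reads, and stood at 0.526 (0.277 to 0.994) and 0.323 (0.188 to 0.555). Foxk2, a glucose-metabolism regulator, had 71 and 131 reads against 72, 93 and 339, and stood at 0.568 (0.404 to 0.800) and 0.425 (0.324 to 0.561). Foxj2, at 0.698 (0.476 to 1.03) and 0.453 (0.337 to 0.611), was the other gene called lower at E12.5. Foxj3, at 0.397 (0.290 to 0.540) and 0.607 (0.469 to 0.791), was called lower with Foxo1 at E11.5. Against IgG E13.5, Foxo3 (0.501), Foxm1 (0.489) and Foxj2 (0.715) were no longer called at E12.5, and against IgG E12.5 Foxj3 (0.522) was not called at E11.5. Relative to the median autosomal gene none of these reached the threshold, since that gene itself lay below IgG. Foxo1 then stood at -0.96 and Foxm1 at -0.95 on the log2 scale at E12.5.

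Foxj1, the master regulator of motile cilia, was the broadly expressed gene other than Foxp4 that was called higher at E11.5, at 3.27-fold (1.36 to 9.51). At E12.5 it stood at 0.946 (0.520 to 1.82). Its 34 and 47 H3K27me3 reads faced 6, 15 and 24 IgG reads. The call at E11.5 was lost against IgG E12.5, where Foxj1 stood at 1.46-fold (0.773 to 2.88), and its level in IgG E12.5 was 2.24 times (0.821 to 7.05) that in IgG E11.5. At E12.5 it stood at 2.23-fold (1.33 to 3.81) over IgG E13.5 and was not called. The remaining genes, Foxk1, Foxn1, Foxn2, Foxn3 and Foxn4, lay between 0.609 and 1.83 at E11.5 and between 0.651 and 1.32 at E12.5. Foxn4, a retina and heart gene, was the highest of these 5 at both stages, and was called higher at E11.5 against IgG E13.5, at 2.34-fold (1.84 to 2.97).

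**Figure D3:**
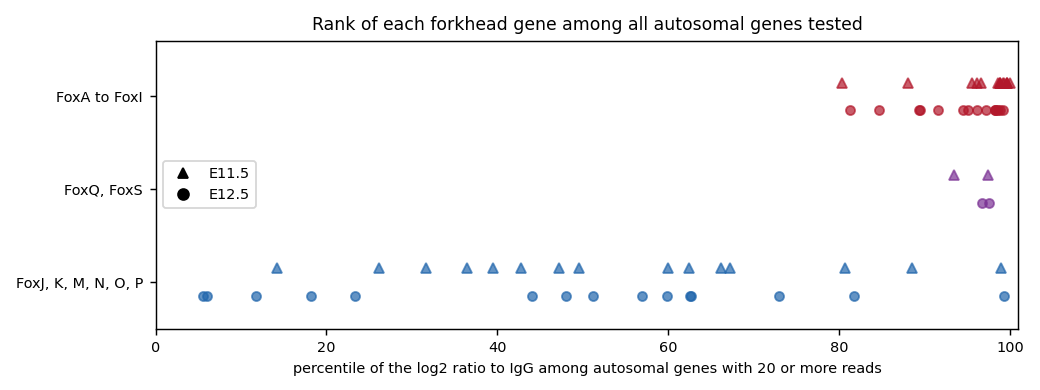
Percentile of each forkhead gene's log2 ratio to stage-matched IgG among all autosomal genes with 20 or more reads, at E11.5 (triangles) and E12.5 (circles), by class. The FoxA to FoxI genes tested all lie above percentile 80, the FoxJ to FoxP genes spread from 5.56 (Foxo1 at E12.5) upward, and Foxp4 lies at 99.3 at E12.5.

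The nearest other genes were read beside each member. Beside the 16 genes called higher at E12.5, 24 neighbours could be tested, of which 10 were called higher and 6 lower. Beside all members together, 62 could be tested, with 13 higher and 15 lower. Of all autosomal genes tested, 15.2% were called higher and 29.5% lower. Forkhead genes were not counted as neighbours here, and a gene beside a pair of members was counted no more than once. Foxs1 and Foxp4 had both neighbours called higher. Foxe1 had both called lower (Xpa and Trmo), while its own fold was 9.21.

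The sequence around the start site was available from RefSeq (GRCm38.p6) for 24 of the 36 genes, as windows of 300 bases that run from 250 bases before the start to 50 after it, so that each CpG count includes 50 transcribed bases. A gene with several starts has 1 window, and those of Foxa1, Foxn3, Foxn4 and Foxp1 lie inside the listed intervals of these genes. Developmental genes had 5 to 32 CpG dinucleotides per window (median 18.5) and broadly expressed genes 32 (6 to 59), against 15 over all autosomal windows. Autosomal genes called higher at E12.5 had a median of 7 and those called lower 22. Within the family, the genes called lower that had a window were Foxo1, Foxo3, Foxj2 and Foxk2, with 31, 35, 37 and 59 CpG. Of the genes called higher, only Foxi3 and Foxp4 reached this range, with 31 and 33. The others held fewer, from 5 (Foxi2) to 27 (Foxf2). The 250 bases before the start are shown, with CpG in capitals, for Foxf2, Foxi3 and Foxp4, which were called higher, and for Foxo3 and Foxi1, which were not.
Foxf2, chr13:31625566-31625815, plus strand: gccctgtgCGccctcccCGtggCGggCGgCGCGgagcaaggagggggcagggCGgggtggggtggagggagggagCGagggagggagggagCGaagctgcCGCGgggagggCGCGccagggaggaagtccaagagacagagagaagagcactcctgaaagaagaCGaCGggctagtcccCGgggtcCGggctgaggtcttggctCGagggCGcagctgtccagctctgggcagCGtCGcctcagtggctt
Foxi3, chr6:70956356-70956605, plus strand: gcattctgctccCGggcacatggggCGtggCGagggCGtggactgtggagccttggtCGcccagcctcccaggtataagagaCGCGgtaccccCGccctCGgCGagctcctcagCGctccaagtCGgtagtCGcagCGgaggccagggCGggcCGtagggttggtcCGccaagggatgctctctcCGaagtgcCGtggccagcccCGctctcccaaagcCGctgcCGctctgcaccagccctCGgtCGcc
Foxp4, chr17:47924633-47924882, minus strand: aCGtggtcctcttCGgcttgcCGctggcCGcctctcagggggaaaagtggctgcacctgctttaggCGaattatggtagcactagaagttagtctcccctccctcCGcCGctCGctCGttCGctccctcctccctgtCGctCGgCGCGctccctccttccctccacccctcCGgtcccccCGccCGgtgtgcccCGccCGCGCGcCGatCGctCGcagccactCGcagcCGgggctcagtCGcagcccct
Foxo3, chr10:42276696-42276945, minus strand: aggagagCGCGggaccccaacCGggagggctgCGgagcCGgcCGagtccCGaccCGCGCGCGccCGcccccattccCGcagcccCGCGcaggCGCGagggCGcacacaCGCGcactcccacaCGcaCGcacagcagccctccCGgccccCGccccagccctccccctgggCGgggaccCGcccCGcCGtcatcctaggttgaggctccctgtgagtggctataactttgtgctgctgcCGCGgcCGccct
Foxi1, chr11:34208090-34208339, minus strand: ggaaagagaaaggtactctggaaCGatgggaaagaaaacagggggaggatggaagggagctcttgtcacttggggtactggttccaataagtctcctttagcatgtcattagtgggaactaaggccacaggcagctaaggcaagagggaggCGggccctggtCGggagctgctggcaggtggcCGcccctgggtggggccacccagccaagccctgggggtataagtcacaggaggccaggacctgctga

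In these stretches Foxf2 held 21 CpG, Foxi3 24, Foxp4 27, Foxo3 31 and Foxi1 4. The forkhead core motif TGTTTAC, searched on both strands, was found in 1 of the 24 windows, that of Foxa1, which lies inside its listed interval. Of all autosomal windows, 2.88% held it. These matches describe letters only.

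Between E11.5 and E12.5, 4 forkhead genes were called lower in H3K27me3, against 0.787% of autosomal genes, and 0 higher, against 0.756%. They were Foxc1, Foxc2, Foxd3 and Foxe3, all developmental. Foxd3 (16 and 13 reads) and Foxe3 (13 and 8) had under 50 reads in the pair. Foxc1 had the largest drop of the genes with 50 or more, from 28.0 to 9.96 RPM, a ratio of 0.356 (0.241 to 0.521). Foxc2 went from 17.0 to 7.57, a ratio of 0.446 (0.278 to 0.713). Foxi3 followed at 0.610 (0.491 to 0.760), from 63.7 to 38.8 RPM, and was not called.

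On single alleles, Foxc1 had 37 and then 19 reads on the first and 29 and then 31 on the second, which were ratios of 0.241 (0.131 to 0.430) and 0.502 (0.292 to 0.863). Both alleles of Foxc1 thus had intervals below 1. Its change was among the lowest of 2279 autosomal genes that were called higher than the summed IgG libraries at both stages (percentile 0.0439). Of these 2279 genes, 28 were called lower at E12.5.

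The direction was wider than these genes. The 19 developmental genes summed to 0.745 (0.693 to 0.800) of their E11.5 level, Foxq1 and Foxs1 to 0.651 (0.523 to 0.811), and the broadly expressed genes to 0.962 (0.934 to 0.991), or 1.03 (0.991 to 1.06) without Foxp4. Among genes with 50 or more reads, 9 of 15 developmental genes had an interval wholly below 1 and 0 wholly above. Such intervals were not counted over all autosomal genes. Of the broadly expressed genes, 1 of 15, Foxp4 at 0.819 (0.775 to 0.865), lay below 1. Foxk1 at 1.28 (1.08 to 1.53) and Foxp2 at 1.24 (1.14 to 1.34) lay above, and Foxj3 had 1.16 (0.882 to 1.55). For Foxk1, a regulator of muscle progenitors and autophagy genes, this was 73.8 and 94.6 RPM, against 110, 135 and 82.4 in IgG.

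Marked autosomal genes as a group were also lower at E12.5, with a median log2 change of -0.18 over the 2279. The 18 forkhead genes among them had a median of -0.44. With 1 library per stage, stage and library cannot be told apart.

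**Figure D4:**
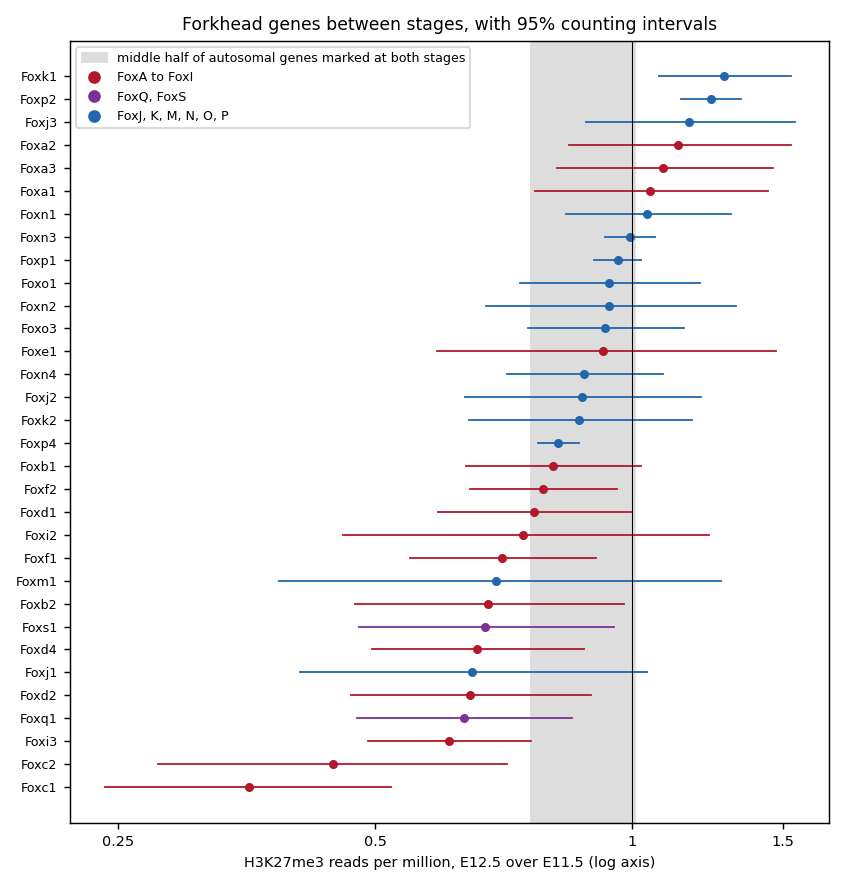
H3K27me3 level at E12.5 over E11.5 (log axis) for the 32 forkhead genes with 50 or more reads in both libraries together, with 95% intervals for counting error; the grey band spans the quartiles of 2279 autosomal genes higher than summed IgG at both stages. Foxc1 and Foxc2 lie lowest at 0.356 and 0.446, and most FoxA to FoxI genes lie left of 1.

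Allele shares are the percent of a gene's reads on the second allele, for genes with 10 or more reads. The files do not say which strain that is. Each share was tested against the pooled autosomal share of its library (51.6% at E11.5 and 51.0% at E12.5) by an exact two-sided binomial test with Benjamini-Hochberg adjustment over all autosomal genes. At E11.5, 4 of 34 forkhead genes were called at an adjusted p below 0.05, against 11.7% of autosomal genes, and at E12.5, 7 of 34, against 17.5%. In IgG E13.5, 0 of 30 were called, against 7.87%, with 1 at an unadjusted p below 0.05. The developmental genes had a median share of 50% and 50.3%, and the broadly expressed genes 49.0% and 50.4%.

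Foxa3 was the most one-sided member with reads on both alleles and 50 or more reads. It had 55 first-allele and 15 second-allele reads at E11.5, a share of 21.4% (12.52 to 32.9, adjusted p = 1.08e-05, exact binomial test). At E12.5 it had 120 and 42, a share of 25.9% (19.4 to 33.4, adjusted p = 3.11e-09, exact binomial test). In IgG the shares were 36.4%, 47.4% and 52.6%. The first allele of Foxa3 stood at 23.3 and 23.9 RPM, 3.70-fold (2.39 to 5.80) and 3.79-fold (2.59 to 5.66) above its level in IgG E13.5. The second allele, at 6.37 and 8.37, stood at 0.908 (0.466 to 1.68) and 1.19 (0.755 to 1.89). In both H3K27me3 libraries the first allele of Foxa3 alone had an interval wholly above 1.

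By Fisher's exact test the Foxa3 share differed between H3K27me3 and IgG E13.5 at both stages (adjusted p = 0.00635 at E11.5 and 0.00233 at E12.5). Against the shallower IgG E12.5, where Foxa3 had 19 reads, the adjusted p was 0.507. In that comparison 0 of 21 forkhead genes were called, against 2.35% of autosomal genes, and 3 had an unadjusted p below 0.05. Against IgG E13.5, 3 of 30 were called at E12.5, against 6.12% of autosomal genes, and 2 of 29 at E11.5, against 4.12%. These tests compare libraries, not conditions.

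Foxd3 carried only second-allele reads in every library in which it had any: 16 and 13 in H3K27me3, and 2 and 4 in IgG E11.5 and E13.5. It was called at both stages (adjusted p = 0.000588 and 0.00238, exact binomial test). Alg6, the next gene to its right, was also at 100% in both H3K27me3 libraries and in IgG E13.5, where it had 125 reads. Of 17149 autosomal genes with 10 or more reads at E12.5, 133 had reads on the second allele alone, and 56 of them had no first-allele read in any library. The one-sidedness of Foxd3 was thus also seen in its few IgG reads.

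The other calls were of smaller size. Foxp1, a very long gene with 1482 and 3033 H3K27me3 reads, had shares of 45.2% and 45.6% (adjusted p = 2.4e-05 and 7.64e-08, exact binomial test), against 47.3%, 50.2% and 50.3% in IgG. Foxp4 lay on the other side, at 55.0% and 54.4% (adjusted p = 0.0216 and 0.000384, exact binomial test), against 55.7%, 49.0% and 50.5% in IgG. Its neighbour Mdfi had 67.1% and 66.3% in H3K27me3 and 69.2% in IgG E13.5. Foxk1 (41.3%, adjusted p = 0.000323), Foxo3 (42.9%, 0.045) and Foxp2 (48.0%, 0.0384) were called at E12.5 alone by this exact test, and Foxo3 was also called in IgG E11.5, at 36.5%. In H3K27me3 at E11.5, with fewer reads, Foxk1, Foxo3 and Foxp2 had shares of 44.25%, 45.65% and 47.5%, on the same side. Against IgG E13.5, Foxa3, Foxk1 and Foxp1 differed at E12.5 by Fisher's exact test.

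Between stages, 0 of 33 forkhead genes changed their share by Fisher's exact test, against 0.53% of autosomal genes, and Foxe1 and Foxn2 had an unadjusted p below 0.05. Foxe1 went from 74.2% of 31 reads to 49.2% of 61, and Foxn2 from 41.8% of 55 to 60% of 110, with adjusted p = 0.736 and 0.754 by that exact test. Apart from Foxa3 and Foxd3, shares at E12.5 ran from 20% (Foxi1, 10 reads) to 63.2% (Foxc2, 38 reads), neither of them called.

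**Figure D5:**
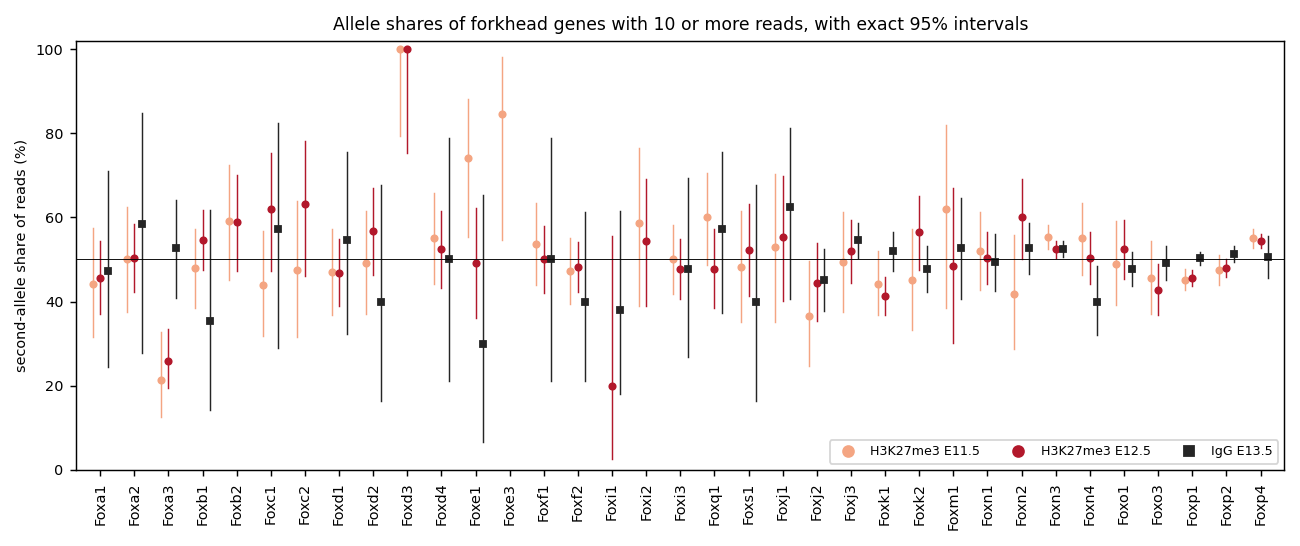
Second-allele share (%) of forkhead genes with 10 or more reads, for H3K27me3 at E11.5 and E12.5 and for IgG E13.5 where it also had 10 or more, with exact 95% binomial intervals. Foxa3 lies at 21.4% and 25.9% with 52.6% in IgG E13.5, Foxd3 lies at 100%, and most other genes lie near 50%.

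Genes that work with the family were read from lists chosen for function, to be set beside 15.2% of autosomal genes called higher and 29.5% lower at E12.5. Of 29 tested genes of Akt and Foxo signalling, 3 were called higher than IgG at E12.5 and 14 lower. The highest were the kinase subunit Pik3r1 (4.33-fold, 3.66 to 5.16), the repressor and Foxo target Bcl6 (3.12-fold, 2.28 to 4.35) and the Kit ligand Kitl (2.37-fold, 1.97 to 2.89). Of 15 tested Hedgehog genes, a pathway that controls Foxa2 and Foxf1, 6 were higher and 4 lower. These included the ligands Ihh (6.24-fold, 3.72 to 11.3) and Shh (3.79-fold, 2.48 to 6.08), the inhibitor Sufu (5.18-fold, 4.55 to 5.92) and the transcription factor Gli1 (3.72-fold, 2.68 to 5.30). Of 14 tested Nodal and Smad genes, the pathway of Foxh1, 3 were higher and 4 lower. The higher genes included the transcription factor gene Eomes (6.75-fold, 3.71 to 13.7) and the inhibitor Lefty1 (4.35-fold, 2.30 to 9.26).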

How the data were processed

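CUT&RUN was done on sorted PGCs. Of 8 labelled samples, 5 had a file; the other 3, further H3K27me3 samples, were not analysed here. Each deposited file holds whole-number counts per gene on 2 alleles, and the authors' fraction of reads on the second, printed as a percent. Per the submitters' processing notes, the tools included Bowtie2 2.4.2, GATK, SAMtools 1.11 and featureCounts, on mm10. Duplicate handling and allele assignment: not given in the sources used here. Only reads over a strain variant can be assigned, so levels also depend on variant density, and duplicates would narrow intervals.

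Levels, ratios, tests and adjustments were computed over all autosomal genes with Python 3.11.15, NumPy 2.4.6, pandas 2.3.3 and SciPy 1.17.1, and checked on simulated data. Fold intervals are exact conditional binomial, share intervals exact Clopper-Pearson. Values were given in full for the 6 highest and 4 lowest ratios at E12.5, the 3 largest changes in either direction, every share call, both genomic groups, Foxo1 and Foxo3, and the 3 highest genes of each list, of which 1 is not reported here; other genes were named after their values were seen. Members and lists were chosen with earlier results of these data known. Alternatives were pseudocounts, minimum reads, control library, centring, call threshold and expected share; sums over classes, folds per allele, length ranges and genes marked at both stages were added after seeing the data. Coordinates and promoters came from RefSeq tables of GRCm38.p6, and lengths from the deposited files.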

Additional observations from a re-analysis of the deposited data

How the results depend on the processing

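The number of genes called lower moved most. At E12.5 it was 5, and 0 after centring on the median autosomal gene. At E11.5 it was 2, and became 4 with IgG E12.5 or IgG E13.5 as control, 0 after centring, and 6 at a 1.5-fold threshold. Genes called lower between stages went from 4 to 1 with a pseudocount of 5 and to 2 with a minimum of 50 reads, which Foxd3 and Foxe3 do not reach. Share calls against IgG at E12.5 went from 0 to 3 with IgG E13.5. No called value changed sign. Uncalled values of 3 genes did, 7 in all: at E12.5 Foxk1 went to 0.20 and Foxp2 to -0.01 with IgG E13.5, and Foxk1 to 0.04 and Foxp1 to 0.36 after centring, while at E11.5 Foxp2 went to 0.53 with IgG E12.5, and Foxp2 and Foxp1 to 0.33 and 0.42 after centring, on the log2 scale. The other 52 values of counts and class differences kept within their limits under the alternatives run. Of the single-gene values, 310 moved by less than their limits and 30 by more.

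No paired analysis was possible because each group had 1 library with a file, so no replicate was left out either. IgG depth limits the sparse genes: Foxd3, Foxe3, Foxh1 and Foxi1 had too few reads to be called against stage-matched IgG. The control at E11.5 came from males.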
